A study of Homo sapiens with 6 samples.

Results

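The genes described here are 9 parts of the YAP/TAZ branch of the Hippo pathway: the coactivators YAP1 and WWTR1 (the gene for TAZ), the DNA-binding partner TEAD1, and the target genes CCN1 (CYR61), CCN2 (CTGF), ANKRD1, AMOTL2, LATS2 and AJUBA. They were chosen by name, for their place in the pathway, and are 9 of the 61014 genes to which the deposited transcripts were assigned. Earlier results of these data were known when they were chosen, so their direction is no independent evidence. By the study's text, all 6 libraries came from paclitaxel (PTX)-resistant MDA-MB-231 cells, an established human line of triple-negative, mesenchymal breast cancer. Both groups would then have carried the same selection for drug resistance. Cells had been sorted by flow cytometry on aldehyde dehydrogenase activity into BCSC (breast cancer stem cells, ALDH+, n = 3) and non-BCSC (ALDH-, n = 3), and lncRNA sequencing of total RNA was done on each fraction. The sample titles give the 2 groups, but name the line and its PTX resistance only for BCSC. The cell type field reads the same for all 6 libraries. No source says that replicates were separate cultures, so p-values measure the spread between these libraries, which may be technical.

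In the Hippo pathway the kinases MST1/2 (STK4 and STK3) activate LATS1 and LATS2, which phosphorylate YAP and TAZ and so hold them in the cytoplasm or mark them for degradation. YAP and TAZ that escape enter the nucleus and act on genes through the TEAD proteins, since they have no DNA-binding domain of their own. LATS2, AMOTL2 and AJUBA are both targets and regulators of the pathway, which gives it feedback. YAP and TAZ are controlled to a large degree at the protein level, so transcript levels of YAP1 and WWTR1 are not a reading of their activity. MDA-MB-231 is known as a line with a damaged NF2 gene, an upstream brake on YAP and TAZ.

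Total counts ran from 9898588 to 21215352 per library, and every BCSC library was deeper than every non-BCSC library. The 6 genes fixed as present in MDA-MB-231 (VIM, CD44, EGFR, SPARC, AXL and CAV1) summed to between 7166 and 8464 CPM, that is, counts divided by a library's normalized total on a common scale, in BCSC and between 4844 and 6697 in non-BCSC. Marker lists of other cells were low but higher in every non-BCSC library. The leukocyte list (4 genes) summed to 0.783 to 1.45 CPM in BCSC and 14.2 to 23.4 in non-BCSC. For the fibroblast list (3 genes) the ranges were 2.81 to 6.11 and 13.4 to 30.2 CPM, for the endothelial list (2 of 3 genes in the annotation used) 18.5 to 33.8 and 46.8 to 88.2, and for the erythroid list (HBB and HBA1) 0 in all BCSC libraries and 0.743 to 3.16. Genes that mark epithelial and hormone receptor-positive breast cells (6 genes) summed to 14.2 to 17.5 and 28.7 to 61.7 CPM. Counts over 406 olfactory receptor genes, which these cells are not known to use, summed to 41.2, 57.5 and 153 CPM in the BCSC libraries, and to 544, 701 and 1166 CPM in those of non-BCSC. Across the 20442 genes tested, the log2 fold change followed GC content (Spearman's rho 0.545 over genes, which do not stand as independent samples). The part of these differences in the results was not tested, but values after a correction for GC content and length, and after removal of the olfactory receptor background, are given for the pathway genes named where they end a call or turn a direction. Of the genes for the sorted enzyme family, named after their values were seen, ALDH1A3 had a log2 fold change of 0.77 (SE 0.27, adjusted p 0.0577) and ALDH1A1 one of -3.63 (SE 1.19, adjusted p 0.0446).

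All 9 genes passed the expression filter. By edgeR's quasi-likelihood test, adjusted over all genes tested, 7 rose in BCSC and 2 fell at an adjusted p under 0.05, against 15.3% and 14.6% of all genes tested (29.9% in either direction). With a fold above 2 also asked for, the rule used below for a call, CCN1, LATS2 and AJUBA were called higher and ANKRD1 lower, against 8.85% and 11.3% of all genes (20.1% in either direction). Without non-BCSC replicate 1 CCN2 and YAP1 were also called, and without non-BCSC replicate 3 AJUBA was not. In all 9 genes the values of the 2 groups stayed apart without overlap, which held for 24.2% of all genes in the higher and 27.9% in the lower direction (52.1% in either). The median log2 fold change was 0.89 over the 9 genes and -0.05 over all genes tested. In bulk libraries, fewer cells that express a gene and less RNA per cell cannot be told apart.

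**Figure D1:**
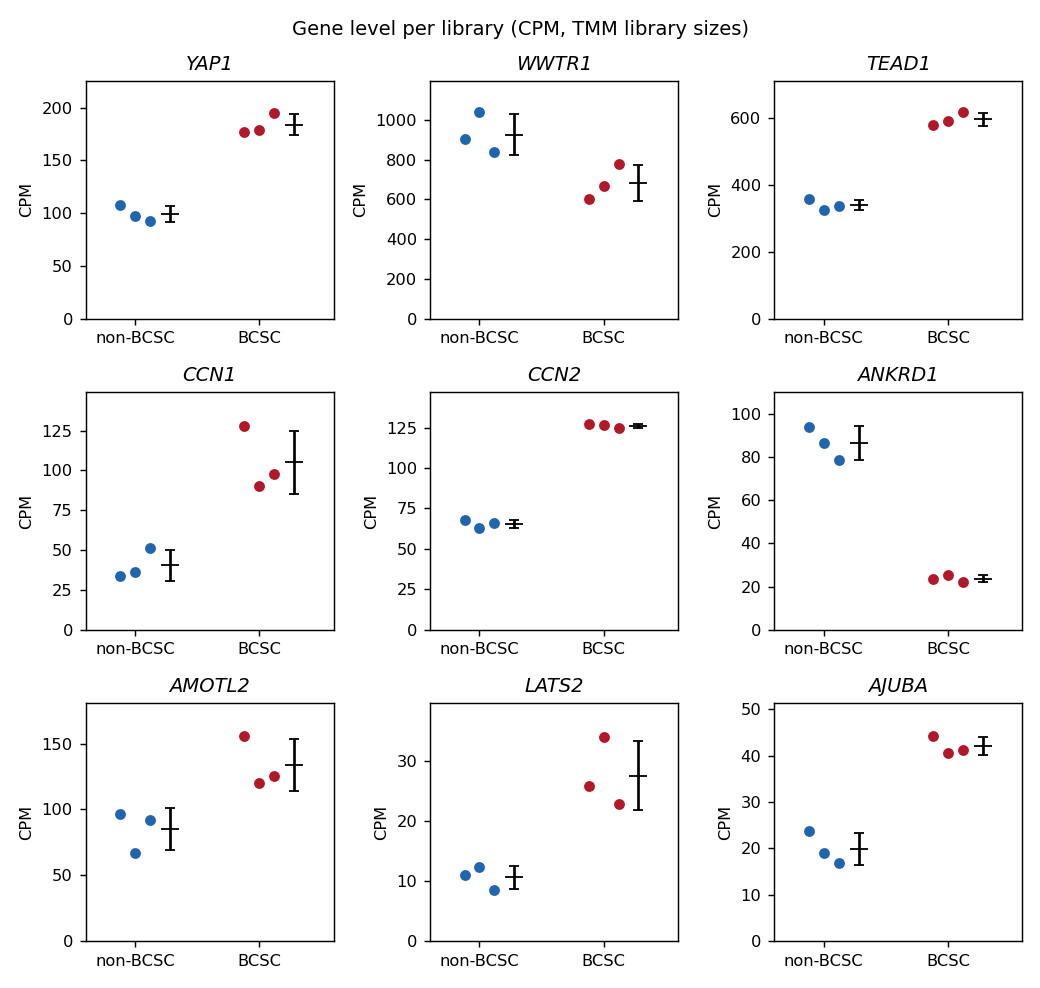
CPM of the 9 genes in each library (points: blue, non-BCSC, and red, BCSC), with the mean and SD of 3 libraries as a bar. For YAP1, TEAD1, CCN1, CCN2, AMOTL2, LATS2 and AJUBA all red points lie above all blue points, and for ANKRD1 and WWTR1 all lie below, with the smallest gap in WWTR1.

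TEAD proteins bind the element CATTCC, which on the other strand reads GGAATG. Sites of AP-1, a factor that often works beside TEAD, were sought as TGANTCA, with any base (N) allowed in the middle. The RefSeq promoter windows on GRCh38.p14, of 250 bases before and 50 after an annotated start, were searched for both on both strands. Windows were found for 7 of the 9 genes, 10 windows in all, and none for CCN1 or TEAD1 in the table used. The TEAD element lay in 6 of the 10 windows, from 6 genes, against 14.0% of 35116 windows of that length. A match to the loose pattern TGANTCA lay in 1 of the 10, that of ANKRD1, against 7.71% of windows. A match describes the letters and not a bound site. The stretches before the start are printed below for CCN2 and ANKRD1, 2 direct targets that moved in opposite directions in these libraries, with the TEAD elements and the AP-1 element of ANKRD1 (TGATTCA) in capitals. They lie on the minus strand at chr6:131951373-131951622 and chr10:90921088-90921337.
CCN2: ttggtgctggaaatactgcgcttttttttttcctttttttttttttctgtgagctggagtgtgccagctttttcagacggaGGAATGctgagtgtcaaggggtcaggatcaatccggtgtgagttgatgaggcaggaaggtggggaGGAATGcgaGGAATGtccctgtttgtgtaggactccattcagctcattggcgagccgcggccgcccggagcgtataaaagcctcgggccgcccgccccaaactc
ANKRD1: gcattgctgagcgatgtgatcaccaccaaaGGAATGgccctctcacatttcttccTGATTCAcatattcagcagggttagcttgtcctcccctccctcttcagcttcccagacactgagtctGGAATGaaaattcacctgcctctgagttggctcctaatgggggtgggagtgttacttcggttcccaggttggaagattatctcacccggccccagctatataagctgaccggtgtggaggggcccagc

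CCN2 held 3 elements, starting 169, 104 and 95 bases before the start, and the last 2 of these lie next to each other in the same orientation. ANKRD1 held 2, starting 220 and 128 bases before the start. The elements of AMOTL2, AJUBA and YAP1 are shown with 20 bases on each side. AMOTL2 held the element 69 bases before the second of its 2 annotated starts (chr3:134374491-134374536, minus strand), AJUBA held it 59 bases before the second of 2 (chr14:22976876-22976921, minus strand), and YAP1 held it 162 bases before its start (chr11:102110265-102110310, plus strand).
AMOTL2: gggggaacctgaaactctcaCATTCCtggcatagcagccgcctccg
AJUBA: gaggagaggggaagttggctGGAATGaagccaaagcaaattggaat
YAP1: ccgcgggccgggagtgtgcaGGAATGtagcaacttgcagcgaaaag

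In LATS2 the element lay 9 bases after the start, and neither of the 2 WWTR1 windows held it.

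**Figure D2:**
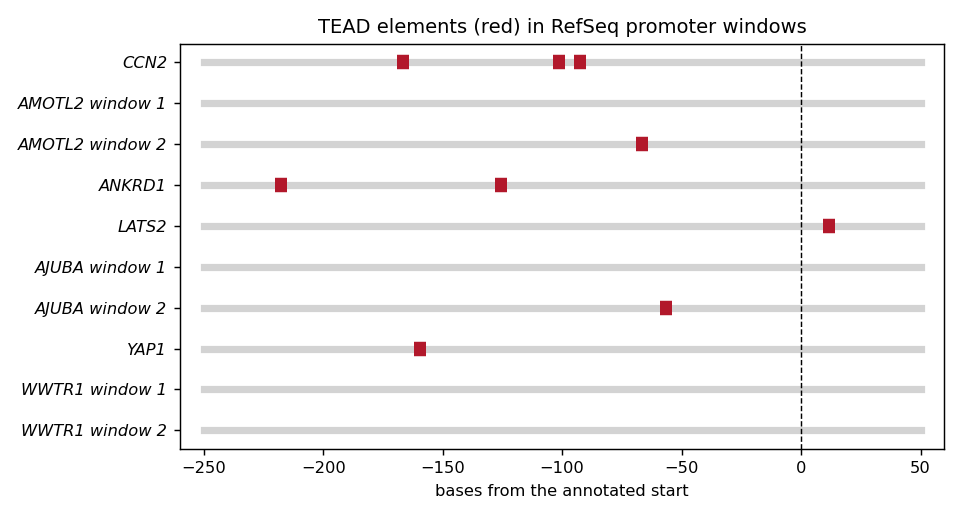
Position of each TEAD element (red) in the 10 RefSeq promoter windows (grey, 250 bases before to 50 after the annotated start, drawn along the direction of transcription), in bases from the start. CCN2 holds 3 elements, ANKRD1 2, and LATS2 has its element after the start, while both WWTR1 windows hold none.

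The 2 coactivator genes moved in opposite directions. YAP1 (ENSG00000137693.14, GRCh37 chr11:101981178-102104155, plus strand) measured 177, 179 and 195 CPM in the BCSC replicates and 107, 97.1 and 92.5 CPM in the non-BCSC replicates. Every BCSC library lay above every non-BCSC library. Its mean level was 184 ± 9.94 CPM in BCSC and 99.0 ± 7.64 in non-BCSC (SD, n = 3 each), a rise of 0.89 on the log2 scale (SE 0.11, adjusted p 0.000863) or 1.85-fold, so that it missed the fold asked for a call. WWTR1 (ENSG00000018408.15, GRCh37 chr3:149235022-149454501, minus strand) measured 601, 666 and 780 CPM in BCSC and 902, 1040 and 836 CPM in non-BCSC. The highest BCSC library and the lowest non-BCSC library differed only 1.07-fold. WWTR1 averaged 682 ± 90.9 CPM in BCSC and 926 ± 104 in non-BCSC, with a log2 fold change of -0.44 (SE 0.12, adjusted p 0.0249). That adjusted p stayed under 0.05 in 2 of the 6 fits that left out 1 library and reached 0.141. The log2 fold change of WWTR1 was -0.80 after the GC content and length correction (adjusted p 0.0123). It was -0.68 after removal of the background (adjusted p 0.00697). With GC content and length taken from the transcripts that carried the counts, it was -0.08 (adjusted p 0.723).

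Per library, the count of YAP1 was 0.294, 0.269 and 0.250 times that of WWTR1 in BCSC and 0.119, 0.0934 and 0.111 times in non-BCSC. The mean ratio was 0.271 ± 0.0222 in BCSC and 0.108 ± 0.0132 in non-BCSC. This ratio needs no scaling between libraries, and its groups did not overlap.

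TEAD1 (ENSG00000187079.20, GRCh37 chr11:12695968-12966284, plus strand) encodes one of 4 TEAD proteins. It measured 581, 592 and 617 CPM in BCSC and 358, 325 and 337 CPM in non-BCSC, and the groups were far apart for their spread. The means were 597 ± 18.8 and 340 ± 16.4 CPM, a rise of 0.81 on the log2 scale (SE 0.09, adjusted p 0.000559). After the GC content and length correction TEAD1 was 1.10 higher and YAP1 1.03 higher, both then past the fold asked for. That correction shifted the median of all genes by 0.11, and less this shift the values were 0.99 for TEAD1 and 0.92 for YAP1. By the GC content and length of the counted transcripts TEAD1 was 1.11 higher and YAP1 0.76 higher. With background removed TEAD1 was 0.59 higher and YAP1 0.69 higher.

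Among the TEAD family and its cofactors (10 genes listed, 8 tested) 2 were called higher and 1 lower, against 8.85% and 11.3% of all genes tested, so that the lower count is near the background. The median log2 fold change was 0.82. TEAD3 and TEAD4, the other family members called, were counted far less often than TEAD1. TEAD3 was counted 187, 55 and 94 times in BCSC and 20, 6 and 0 times in non-BCSC, a log2 fold change of 3.05 (SE 1.03, adjusted p 0.0499). TEAD4 had 193, 85 and 80 counts in the BCSC replicates, against 7, 15 and 14 in the non-BCSC replicates (log2 fold change 2.61, SE 0.62, adjusted p 0.0135). TEAD3 was called in only 1 of the 6 fits that left out a library, that without non-BCSC replicate 1, with adjusted p between 0.0513 and 0.168 in the other 5, and it was not called with RLE size factors (adjusted p 0.0555). TEAD4 was not called without BCSC replicate 1 (adjusted p 0.0839). After the GC content and length correction TEAD3 stood at 2.04 (adjusted p 0.106) and TEAD4 at 1.27 (adjusted p 0.122). TEAD2, counted 361, 179 and 198 times in BCSC and 89, 89 and 86 times in non-BCSC, had a log2 fold change of 0.82 (SE 0.31, adjusted p 0.0705), and by that correction it stood at -0.12 (adjusted p 0.768). VGLL3, a cofactor that binds TEAD proteins in place of YAP and TAZ, was counted 53, 36 and 129 times in BCSC and 182, 105 and 135 times in non-BCSC, without overlap once scaled to CPM, and its log2 fold change was -1.54 (SE 0.51, adjusted p 0.0467). It was not called in 5 of the 6 fits that left out a library, all but the fit without BCSC replicate 3, nor after removal of the background (-1.39, adjusted p 0.132). VGLL3 was called after the GC content and length correction (-1.58, adjusted p 0.0327) but not with those of the counted transcripts (-1.09, adjusted p 0.0931). VGLL4, which represses TEAD targets, averaged 48.9 ± 8.27 CPM in BCSC and 59.9 ± 2.95 in non-BCSC, with overlapping libraries (log2 fold change -0.29, SE 0.16, adjusted p 0.194). With the GC content and length correction VGLL4 was 1.28 lower on the log2 scale (log2 fold change -1.28, adjusted p 0.00100). With those of the counted transcripts VGLL4 stood at -0.65 (adjusted p 0.00980), and after removal of the background at -0.52 (adjusted p 0.0347). Neither passed the fold asked for. VGLL1 and VGLL2 did not pass the expression filter.

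CCN1 and CCN2, secreted matricellular proteins that bind integrins and are the most used readouts of YAP/TAZ activity, both rose. CCN1 (ENSG00000142871.18, GRCh37 chr1:86046444-86050272, plus strand) measured 128, 90.3 and 97.4 CPM in BCSC and 33.6, 36.3 and 51.5 CPM in non-BCSC. BCSC replicate 1 was the highest of the 6 libraries, and the nearest libraries of the 2 groups differed 1.75-fold. Means were 105 ± 19.9 and 40.5 ± 9.65 CPM, a rise of 1.38 on the log2 scale (SE 0.20, adjusted p 0.00184) or 2.60-fold. CCN1 was called under every alternative run on gene sums, with log2 fold changes between 1.17 and 1.61.

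CCN2 (ENSG00000118523.6, GRCh37 chr6:132269316-132272512, minus strand) measured 127, 127 and 125 CPM in BCSC and 68.1, 63.1 and 65.8 CPM in non-BCSC. Its replicates were the tightest of the 9 genes in BCSC, at 126 ± 1.33 CPM against 65.7 ± 2.50 in non-BCSC. The rise of 0.94 on the log2 scale (SE 0.11, adjusted p 0.000686), or 1.92-fold, fell short of the fold asked for a call. Without non-BCSC replicate 1 it was 1.02 and was called. The rise was 0.69 after the GC content and length correction, 0.68 with those of the counted transcripts and 0.75 after removal of the background. It was 0.79 with a minimum of 10 counts per library, and none of these values passed the fold asked for. LINC01013, an lncRNA on the opposite strand that spans all of CCN2, was counted 17, 6 and 75 times in BCSC and 174, 101 and 214 times in non-BCSC. Whether strand was used in counting is not given in the sources used here, so reads of the 2 genes may not be fully separated.

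ANKRD1, a nuclear ankyrin repeat protein best known from stretched muscle, is a direct YAP/TAZ target that moved the other way. ANKRD1 (ENSG00000148677.7, GRCh37 chr10:92671853-92680844, minus strand) measured 23.4, 25.4 and 22.0 CPM in BCSC and 93.9, 86.6 and 78.4 CPM in non-BCSC. The lowest non-BCSC library was 3.09 times the highest BCSC library, the widest gap of the 9 genes. It averaged 23.6 ± 1.69 CPM in BCSC and 86.3 ± 7.79 in non-BCSC, a log2 fold change of -1.87 (SE 0.15, adjusted p 0.000107) or 3.66-fold lower in BCSC. The fall was called under every alternative run on gene sums. It was -1.25 after the GC content and length correction (adjusted p 0.00183), -1.14 with those of the counted transcripts, and -2.10 after removal of the olfactory receptor background.

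The contrast between the targets was seen within each library. CCN2 was counted 5.44, 4.99 and 5.66 times as often as ANKRD1 in BCSC and 0.725, 0.729 and 0.840 times in non-BCSC. CCN1 over ANKRD1 gave ratios of 5.47, 3.56 and 4.43 in the BCSC replicates, against 0.358, 0.419 and 0.657 in the non-BCSC replicates. In all 3 BCSC libraries both CCN genes thus exceeded ANKRD1 in counts, and in all 3 non-BCSC libraries ANKRD1 exceeded both. These ratios are of counts without the GC content and length correction. With it the log2 fold changes were closer together, at 0.69 for CCN2, 1.17 for CCN1 and -1.25 for ANKRD1.

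The feedback genes LATS2, AMOTL2 and AJUBA all rose as deposited, but less securely. LATS2 (ENSG00000150457.9, GRCh37 chr13:21547175-21635725, minus strand), the kinase that inhibits YAP and TAZ, measured 25.9, 34.0 and 22.9 CPM in BCSC and 11.1, 12.3 and 8.44 CPM in non-BCSC. In non-BCSC it was the least counted of the 9 genes, with 88 to 139 counts per library, and the groups lay 1.87-fold apart at their nearest libraries. The log2 fold change was 1.38 (SE 0.26, adjusted p 0.00587) on means of 27.6 ± 5.73 and 10.6 ± 1.96 CPM. After the GC content and length correction it was 0.36 (adjusted p 0.354), and 0.78 (adjusted p 0.0364) with those of the counted transcripts. Per kb of mean annotated transcript length, LATS2 counts were 39.3 to 165 times the olfactory receptor background in BCSC and 1.91 to 5.35 times in non-BCSC. These were the lowest of the 9 genes in both groups. Nearly all LATS2 counts fell on LATS2-201, of 5546 nt against a mean of 3020.5 nt. By that length the multiples would be lower, and LATS2 would lie nearer the background in non-BCSC. The related kinase LATS1 averaged 194 ± 13.1 CPM in BCSC and 146 ± 1.95 in non-BCSC (log2 fold change 0.41, SE 0.10, adjusted p 0.0146). LATS2 was counted 0.142 ± 0.0251 times as often as LATS1 in BCSC and 0.0728 ± 0.0143 times in non-BCSC, with no overlap.

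AMOTL2 (ENSG00000114019.15, GRCh37 chr3:134074189-134094321, minus strand), an angiomotin family scaffold that binds YAP, measured 156, 120 and 125 CPM in BCSC and 96.2, 66.6 and 91.8 CPM in non-BCSC. The groups stood only 1.24-fold apart at their nearest libraries. On means of 134 ± 19.6 and 84.9 ± 16.0 CPM the log2 fold change was 0.66 (SE 0.17, adjusted p 0.0171). The direction turned with the GC content and length correction, to -0.56 (adjusted p 0.0338), and to -0.33 (adjusted p 0.137) with those of the counted transcripts. AMOTL2 has the highest GC content of the 9 genes, 63.0% as a mean over its annotated transcripts and 56.3% weighted by their counts. After removal of the background the rise was 0.44 (adjusted p 0.0786).

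AJUBA (ENSG00000129474.17, GRCh37 chr14:23440386-23451760, minus strand), a LIM protein that binds LATS kinases and holds them back, measured 44.2, 40.6 and 41.3 CPM in BCSC and 23.7, 19.0 and 16.8 CPM in non-BCSC. The nearest libraries of the 2 groups differed 1.71-fold. Its means were 42.0 ± 1.94 and 19.8 ± 3.52 CPM, a log2 fold change of 1.08 (SE 0.20, adjusted p 0.00472). This lay just past the fold asked for, and the value was 0.998 without non-BCSC replicate 3, 0.88 after the GC content and length correction and 0.95 after removal of the background. Its adjusted p stayed under 0.05 in all of these fits.

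**Figure D3:**
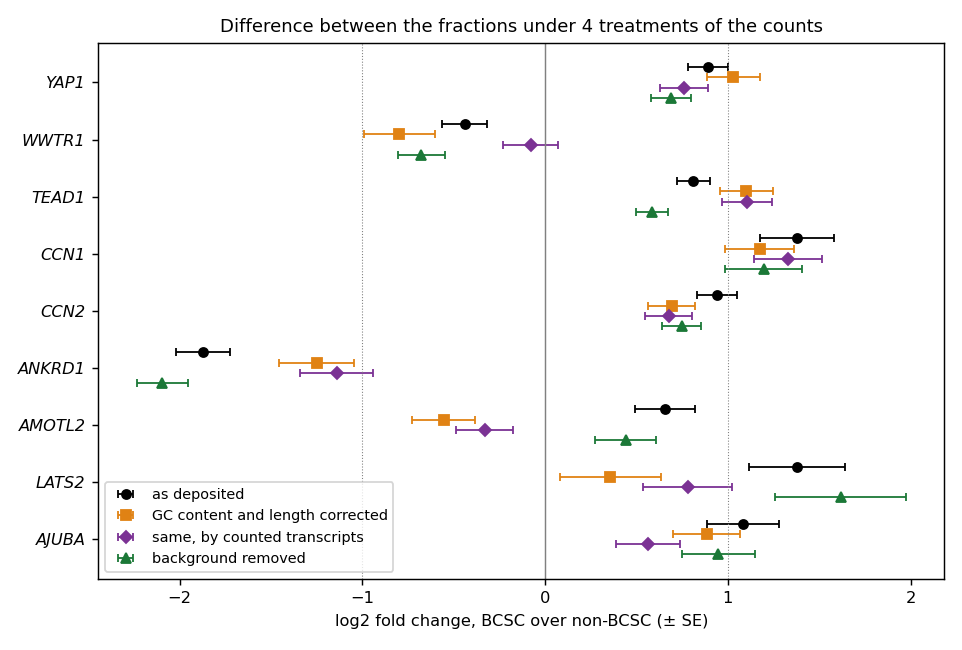
Log2 fold change of BCSC over non-BCSC with its SE for each gene, as deposited (black), after the GC content and length correction (orange), after the same correction by the counted transcripts (purple) and after removal of the olfactory receptor background (green). CCN1 stays above 1 and ANKRD1 below -1 in all 4, AMOTL2 crosses 0 (0.66 to -0.56), and LATS2 ranges from 0.36 to 1.62.

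Under the GC content and length correction the genes called higher were CCN1, YAP1 and TEAD1 and the gene called lower was ANKRD1. CCN1 and ANKRD1 were the only 2 of the 9 called in every fit run on gene sums. WWTR1 kept its direction in all of them.

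Other genes of the pathway were taken from lists of its parts. In the kinase core (STK3, STK4, SAV1, MOB1A, MOB1B, LATS1 and LATS2) all 7 were tested, and only LATS2 was called, 14.3% of the list against 8.85% of all genes tested. The median log2 fold change was 0.18. Without LATS2, 1 of 6 passed an adjusted p of 0.05 (LATS1). STK3 turned from -0.33 to 0.48 (adjusted p 0.0458) after the GC content and length correction, and SAV1 from -0.19 to 0.49 (adjusted p 0.0862). STK4 then stood at 0.85, LATS1 at 0.80, MOB1B at 0.74 and MOB1A at 0.37, and no gene of the list was called. MOB1B was called with those of the counted transcripts (1.01, adjusted p 0.000615). MOB1A (-0.14) and MOB1B (-0.05) turned after removal of the background, and LATS1 then stood at 0.20 (adjusted p 0.188). Of the 8 STRIPAK genes, whose phosphatase complex counteracts MST1/2, only STRN4 was called (log2 fold change 1.14, SE 0.37, adjusted p 0.0427), the median was 0.02, and after the GC content and length correction STRN4 stood at 0.01 (adjusted p 0.989). Under that correction 1 other gene of the list was called higher. After removal of the background STRN4 stood at 1.05 (adjusted p 0.0759). The STRIPAK list had no call in 4 of the 6 fits that left out a library, those without BCSC replicate 1 or 2 and without non-BCSC replicate 2 or 3.

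Of 25 upstream regulators 24 were tested, of which 7 were called higher and 0 lower, against 8.85% and 11.3% of all genes tested. The median log2 fold change was 0.63, and 12 were higher and 0 lower at an adjusted p under 0.05, against 15.3% and 14.6% of all genes. Besides AJUBA these were NF2, RASSF1, AMOTL1, SCRIB, CSNK1D and CSNK1E. NF2, the tumour suppressor merlin, was counted 8817, 6184 and 5409 times in BCSC and 2310, 2047 and 1981 times in non-BCSC (log2 fold change 1.05, SE 0.12, adjusted p 0.000615). AMOTL1, a paralog of AMOTL2, averaged 127 ± 6.52 CPM in BCSC and 45.0 ± 8.51 in non-BCSC, a log2 fold change of 1.50 (SE 0.15, adjusted p 0.000391). RASSF1, an adaptor of the MST kinases, had a log2 fold change of 1.81 (SE 0.40, adjusted p 0.0102), and SCRIB, a polarity scaffold, 1.53 (SE 0.49, adjusted p 0.0419). For CSNK1D and CSNK1E, kinases that help mark YAP and TAZ for degradation, the values were 1.03 (SE 0.21, adjusted p 0.00749) and 1.38 (SE 0.30, adjusted p 0.0106).

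Most of these calls were lost in the fit that takes GC content and length into account. After the GC content and length correction 1 of the 24 was called, AMOTL1 at 1.22 (adjusted p 0.000649). NF2 then stood at 0.41 (adjusted p 0.0392), RASSF1 at 0.67, SCRIB at -0.16, CSNK1D at 0.10 and CSNK1E at 0.33. After removal of the background 4 of the 24 were called. NF2 (0.83) and CSNK1D (0.84) were then below the fold asked for, as was AJUBA, while RASSF1 stood at 2.70 and SCRIB at 2.95. With RLE size factors 3 were called higher. Leaving out 1 library gave 3 to 7, with 3 called without BCSC replicate 1 and 4 without non-BCSC replicate 3.

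A list of 22 conserved YAP/TAZ targets holds 5 of the 9 genes described. All 22 were tested, and 8 were called higher and 3 lower (36.4% and 13.6% of the list), against 8.85% and 11.3% of all genes tested, so that the lower share is near the background. The median log2 fold change was 0.84. At an adjusted p under 0.05, 14 were higher and 5 lower, against 15.3% and 14.6% of all genes. Of the 17 targets besides the 5, 6 were called higher and 2 lower, with a median of 0.81. The higher calls with the smallest p were DOCK5, NT5E, F3 and CCN1.

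DOCK5, an exchange factor for Rac, averaged 281 ± 9.31 CPM in BCSC and 125 ± 13.3 in non-BCSC (log2 fold change 1.16, SE 0.11, adjusted p 0.000248). NT5E, the surface enzyme CD73 that makes adenosine, averaged 163 ± 14.7 and 65.4 ± 11.0 CPM (log2 fold change 1.32, SE 0.15, adjusted p 0.000582). F3, tissue factor, averaged 61.5 ± 1.55 and 24.3 ± 3.84 CPM (log2 fold change 1.34, SE 0.17, adjusted p 0.00104). All 3 remained called after the GC content and length correction, at 1.38, 1.70 and 1.80. After removal of the background DOCK5 stood at 0.95, below the fold asked for. The other higher calls were LATS2 and, named after their values were seen, FJX1, GADD45A and ARHGEF17. These last 3 stood at 0.56, 0.43 and 0.28 after the GC content and length correction and were then not called. ARHGEF17 was also not called after removal of the background (adjusted p 0.0952).

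Besides ANKRD1, the targets called lower were IGFBP3 and RBMS3. IGFBP3, a secreted carrier of insulin-like growth factors, was counted 257, 185 and 213 times in BCSC and 1397, 1176 and 1027 times in non-BCSC. Its level was 12.5 ± 0.420 CPM in BCSC and 106 ± 8.57 CPM in non-BCSC. The log2 fold change of -3.08 (SE 0.15, adjusted p 9.1e-06) was the largest of the list in either direction. RBMS3, an RNA-binding protein, averaged 69.4 ± 4.32 and 163 ± 18.9 CPM (log2 fold change -1.24, SE 0.12, adjusted p 0.000379), and stood at -0.84 after the GC content and length correction. AXL, a receptor tyrosine kinase, was higher by 0.88 on the log2 scale (SE 0.13, adjusted p 0.00171), and by the same correction it stood at -0.09 (adjusted p 0.707). With the correction 4 targets were called higher and 2 lower, with background removed 6 and 3, and leaving out 1 library gave 7 to 11 higher and 3 to 4 lower.

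**Figure D4:**
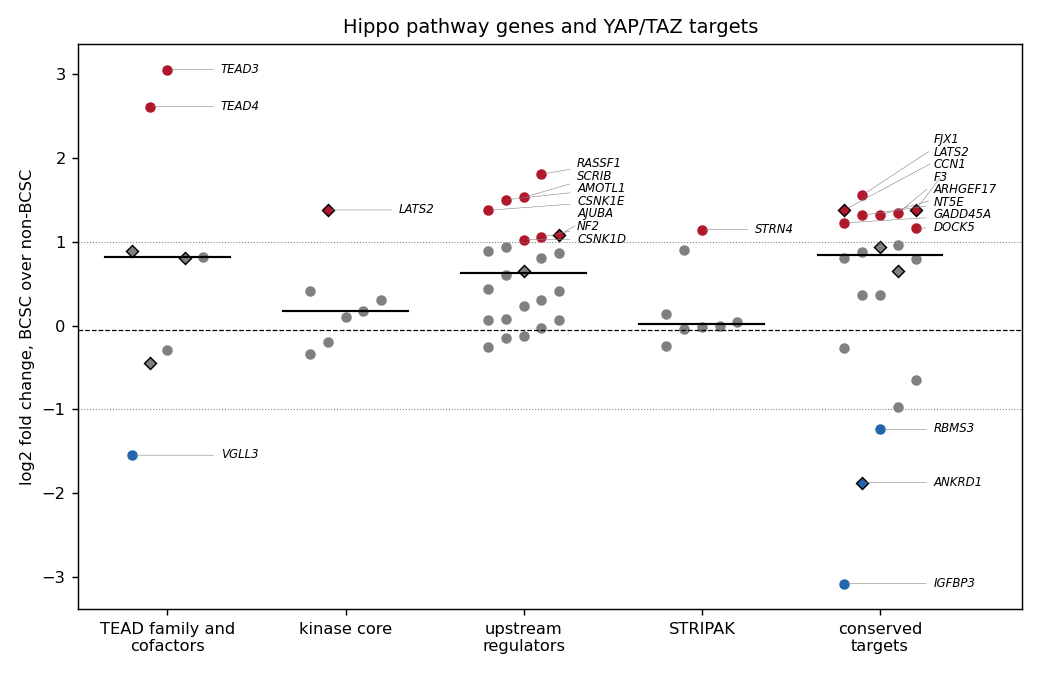
Log2 fold change of each tested gene in 5 lists (red, called higher; blue, called lower; grey, not called; diamonds, the 9 genes described), with the list's median as a bar, the median of all genes tested (-0.05) as a dashed line and the fold asked for a call as dotted lines. The conserved targets spread from IGFBP3 at -3.08 to FJX1 at 1.55, and no upstream regulator is called lower.

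The deposited table holds transcripts, and the gene sums rest on 59 annotated transcripts of the 9 genes, of which 48 had counts and 29 passed the filter. Of these 29, 1 was called when transcripts were tested as deposited (0.784% of all transcripts tested), ANKRD1-201, the only annotated transcript of ANKRD1 (log2 fold change -1.79, SE 0.24, adjusted p 0.0479). The only CCN2 transcript had a log2 fold change of 1.02 (SE 0.16, adjusted p 0.0585). At an unadjusted p under 0.05 with the same fold, 7 of the 29 passed, against 15.8% of all transcripts.

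In CCN1 the transcripts that carried the counts varied between libraries, and their shares overlapped between the groups. The coding transcript CCN1-201 was counted 587, 674 and 723 times in BCSC and 100, 0 and 0 times in non-BCSC. It could still not be called (adjusted p 0.477). The rest fell on transcripts annotated as retaining an intron, which held 77.2%, 51.2% and 55.1% of the CCN1 counts of the BCSC replicates and 75.2%, 99.5% and 99.4% of those of the non-BCSC replicates, so that the groups overlapped through BCSC replicate 1 and non-BCSC replicate 1. Over all genes such transcripts held 9.55% ± 0.452 and 9.39% ± 0.619 of counts. CCN1-201 shares 92.1% of its bases with the retained-intron transcript CCN1-203.

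In other genes the split changed between replicates of 1 group. WWTR1-201 held nearly all WWTR1 counts in 5 libraries (8665 to 12783) and 0 in non-BCSC replicate 2, where WWTR1-203 had 11628 counts and elsewhere at most 7. These transcripts share 94.8% of the bases of WWTR1-201. For TEAD1, TEAD1-206 and TEAD1-203 had 4265 and 0 counts in non-BCSC replicate 1 and 500 and 3005 in replicate 2. YAP1-201 ran from 0 to 1270 counts within non-BCSC, and all 11 YAP1 transcripts had counts. The gene sums of WWTR1, TEAD1 and YAP1 did not show these jumps.

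**Figure D5:**
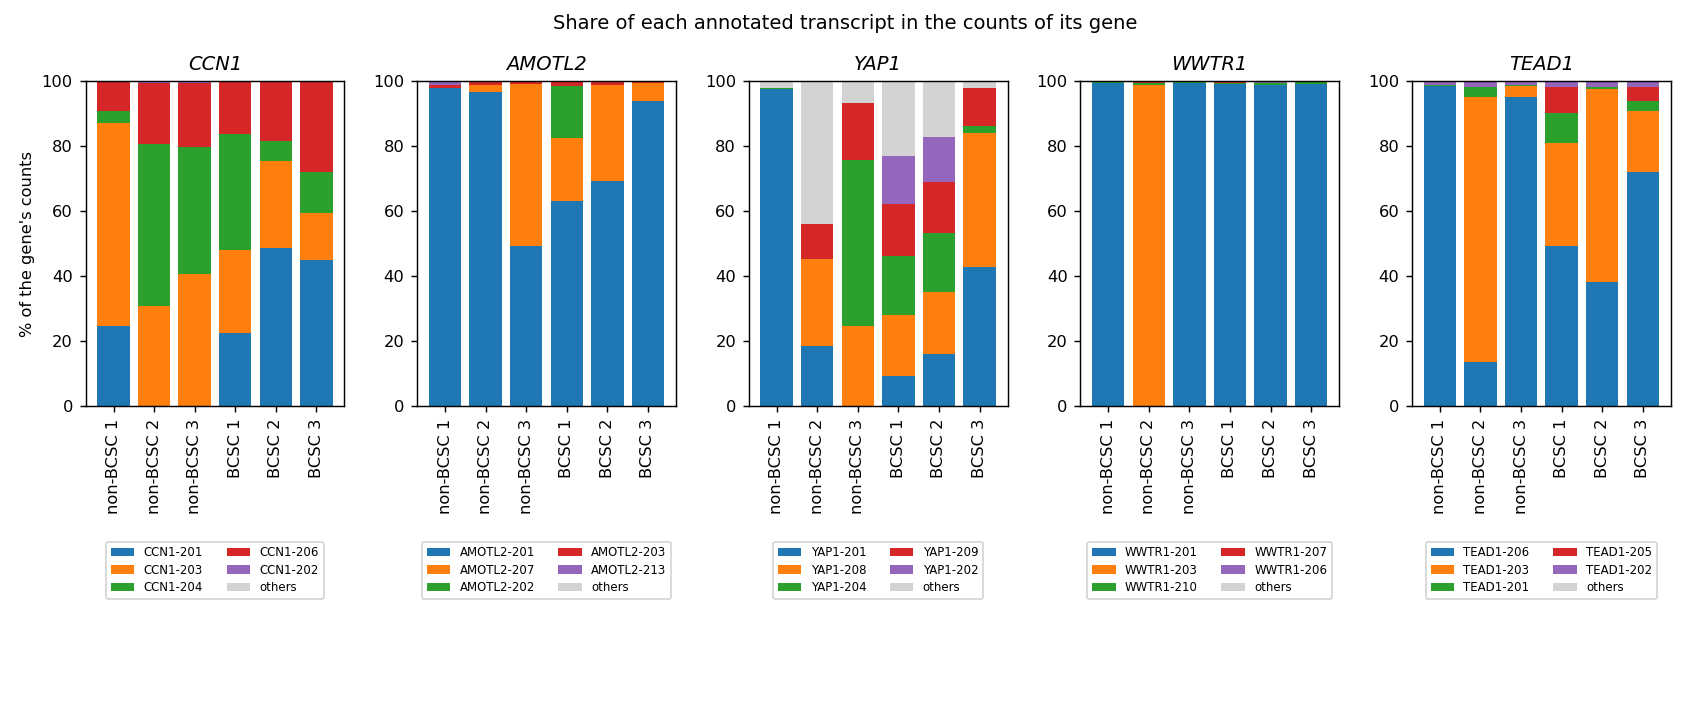
Percent of a gene's counts on each annotated transcript, per library, for 5 genes (the 5 transcripts with most counts in colour, others in grey). CCN1-201 (blue) is at 0 in non-BCSC replicates 2 and 3, and WWTR1-201 gives way to WWTR1-203 only in non-BCSC replicate 2.

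Levels were compared between genes as CPM per kb of mean annotated transcript length. In BCSC WWTR1 was highest at 434 ± 57.8, followed by TEAD1 at 140 ± 4.41, AMOTL2 at 70.9 ± 10.4, YAP1 at 64.0 ± 3.47, CCN2 at 53.9 ± 0.571, CCN1 at 51.8 ± 9.78, AJUBA at 30.1 ± 1.39, ANKRD1 at 13.2 ± 0.946 and LATS2 at 9.13 ± 1.90 CPM per kb. The neighbours AMOTL2 and YAP1, and CCN2 and CCN1, overlapped between libraries. In non-BCSC the order was WWTR1 at 589 ± 66.3, TEAD1 at 79.6 ± 3.84, ANKRD1 at 48.2 ± 4.35, AMOTL2 at 45.0 ± 8.46, YAP1 at 34.5 ± 2.66, CCN2 at 28.1 ± 1.07, CCN1 at 19.9 ± 4.75, AJUBA at 14.2 ± 2.53 and LATS2 at 3.51 ± 0.650 CPM per kb. ANKRD1 overlapped AMOTL2 there, AMOTL2 overlapped YAP1, and CCN1 overlapped AJUBA. ANKRD1 thus ranked 8th in BCSC and 3rd in non-BCSC. The order depended on the length used. By the longest transcript WWTR1 was at 135, TEAD1 at 63.4 and AMOTL2 at 27.5 CPM per kb in BCSC, and with each transcript divided by its own length they were at 145, 85.6 and 32.4. AMOTL2 then ranked 6th in both groups on both scales, and ANKRD1 ranked 2nd in non-BCSC. WWTR1 was first and LATS2 last on all 3 length scales.

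The genes whose pattern over the 6 libraries was most like that of CCN1 (Pearson's r of log2(CPM + 0.5), among the 12575 genes that averaged 50 counts or more) were FXR2 at 0.998, CSRNP1 at 0.996 and TGFBRAP1 at 0.995. For CCN2 they were the lncRNA LINC00115 at 0.9996, MAPK14 (p38 alpha) at 0.999 and ABL2 at 0.999. LINC00115 measured 1716, 1618 and 1120 CPM in BCSC and 5.94, 3.09 and 4.70 CPM in non-BCSC. The points form 2 separate groups, so such values mostly restate the difference between the fractions: 438 genes had an r over 0.95 with CCN1 and 945 with CCN2.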

How the data were processed

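For 3 BCSC and 3 non-BCSC libraries the authors deposited estimated counts per transcript as whole numbers, without normalization. The step that assigned reads to transcripts, the annotation release and the use of strand are not given in the sources used here, although the library protocol keeps strand (dUTP). The study's methods name HISAT2 and hg19, while the submitters' processing notes name HISAT2, featureCounts, DESeq2 and hg38. The table has no coordinates. Transcripts were matched by identifier to GENCODE on GRCh37 (249616 of 252618, with 99.7% of counts, 1746 of them by another version of the identifier) and summed per gene, and gene positions are GRCh37. Promoter windows are RefSeq on GRCh38.p14, with no coordinate converted between builds.

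The main test was edgeR's quasi-likelihood test (version 4.0.16 under R 4.3.3) of gene sums, fitted robustly on group after filterByExpr and TMM, and adjusted by Benjamini-Hochberg over 20442 genes. A call needed an adjusted p under 0.05 and a fold above 2, the criterion in the study's RNA-seq methods. For the lncRNAs of this comparison the study gives a fold above 2 and a p under 0.05, with no adjustment stated. The common biological coefficient of variation was 0.453. CPM used TMM library sizes. A count of 0 allows up to 3 counts, or 0.141 to 0.303 CPM, for counting error only, since reads carry no molecular identifiers.

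GC content and length were corrected by a loess per library (span 0.3). As background, the count per kb over 406 olfactory receptor genes was multiplied by each gene's mean transcript length and subtracted before the fit. In LATS2, AJUBA and WWTR1 most counts fell on transcripts longer than that mean, so less was subtracted than by the length of those transcripts. DESeq2 1.42.0 and RLE scaling were also run, as were fits with no filter, with a minimum of 10 counts per library, with the replicate number as a block, with each library left out, with thinned counts, with an unadjusted p, with no minimum fold, and on transcripts as deposited. The correction by counted transcripts and the level with each transcript divided by its own length were added after seeing the data. The scripts were tested on simulated counts.

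The 9 genes and the lists were chosen with earlier results of these data known, so their direction is no independent evidence. Named were the 9 genes, from each list every gene called (above 8 calls, the 4 with the smallest p in each direction), TEAD2, TEAD3, TEAD4, VGLL3, VGLL4, LATS1, NF2 and AXL, and for CCN1 and CCN2 the 3 genes of highest r.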

Additional observations from a re-analysis of the deposited data

How the results depend on the processing

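CCN1 and ANKRD1 were called, and TEAD1, YAP1 and CCN2 kept their direction and an adjusted p under 0.05, under every alternative that was run on gene sums. After the GC content and length correction the log2 fold change of AMOTL2 was -0.56, of LATS2 0.36, of AJUBA 0.88, of YAP1 1.03 and of TEAD1 1.10. By the counted transcripts AMOTL2 was -0.33, LATS2 0.78, AJUBA 0.56, YAP1 0.76 and TEAD1 1.11. AJUBA was also below the fold asked for with RLE size factors (0.99), with a minimum of 10 counts per library (0.94) and with background removed (0.95), and CCN2 was above it with no filter (1.01). With no fold minimum CCN2 (0.94), AMOTL2 (0.66), YAP1 (0.89), WWTR1 (-0.44) and TEAD1 (0.81) passed. Leaving out 1 library gave 1.22 to 1.61 for CCN1, 0.94 to 1.02 for CCN2, 0.54 to 0.81 for AMOTL2 (adjusted p up to 0.0654), -1.92 to -1.75 for ANKRD1, 1.23 to 1.54 for LATS2, 0.998 to 1.29 for AJUBA, 0.84 to 1.01 for YAP1, -0.56 to -0.30 for WWTR1 and 0.78 to 0.90 for TEAD1. Without non-BCSC replicate 1, CCN2 (1.02) and YAP1 (1.01) were called.

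Over all genes, 1810 were called higher and 2307 lower. No fold minimum gave 3125 higher. A minimum of 10 counts per library gave 1383 higher and 1177 lower, background removed 1789 and 1088, and DESeq2 1900 and 4767. An unadjusted p gave 3527 lower. Leaving out 1 library gave 959 to 2230 higher and 1103 to 3004 lower. The cause of these changes was not tested. With the replicate block, 1994 genes were higher and 2321 lower, CCN1 was 1.39 and ANKRD1 -1.87, and no call of the 9 genes changed. The samples share only a number: the correlations of same-numbered deviations were 0.222, 0.0302 and 0.248, and BCSC replicate 2 correlated slightly better with non-BCSC replicate 1 (0.0432). Depth limits called genes with few non-BCSC counts, among them TEAD3 (0 to 20), TEAD4 (7 to 15), RASSF1 (31 to 40) and SCRIB (29 to 54).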
